A study of Homo sapiens with 6 samples.

Results

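The cyclin-dependent kinase (CDK) inhibitors and the D cyclins set how readily a cell leaves the first gap phase of its cycle. The 10 genes described here are the Cip/Kip inhibitors CDKN1A, CDKN1B and CDKN1C, the INK4 inhibitors CDKN2A, CDKN2B, CDKN2C and CDKN2D, and the D cyclins CCND1, CCND2 and CCND3. They were read through every probe set of the value table whose only gene symbol in the platform annotation was one of them. This gave 22 of 54675 probe sets, for 9 of the 10 genes. No probe set carried the symbol CDKN2C in that annotation, and CDKN2C was not analysed here. Of the 22 probe sets, 10 were bright enough to be tested, for 7 genes. The bar was a log2 value above 4, taken as the detection level, on 3 or more of the 6 arrays.

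The cells were MDA-MB-231, an established human line of mesenchymal-like, hormone receptor-negative breast cancer. The 3 GFP control arrays came from cells carrying a lentivirus for enhanced green fluorescent protein (GFP) alone, and the 3 arrays labelled GATA3 from cells carrying a lentivirus for GATA3, a transcription factor of the luminal mammary epithelium, together with GFP. Both kinds of cell had been sorted for GFP, plated in 100 mm dishes in medium with 10% serum, and harvested after 2 days. The title of the series links GATA3 to a luminal state and to fewer metastases, and the comparison of the groups asks which transcripts differ between these cells. The promoter of the lentivirus is not given in the sources used here, and the labels do not say whether the 3 arrays of a group were separate cultures, so the p-values reflect only how far these arrays scatter, and that scatter may be technical. Each level below is a GCRMA value in log2 units, and 3 arrays per group limit the precision.

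D cyclins bind CDK4 and CDK6, and the active kinases phosphorylate the retinoblastoma protein, which then releases E2F transcription factors. INK4 proteins bind CDK4 and CDK6 and keep D cyclins away, whereas Cip/Kip proteins bind whole cyclin-CDK complexes and block above all those of CDK2. CDKN1A encodes p21, and CDKN2A and CDKN2B lie side by side on the short arm of chromosome 9. MDA-MB-231 is known to have lost CDKN2A by deletion. In the mammary gland, CDKN2C is known as a gene that GATA3 represses.

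The labels and arrays were examined first. The 9 markers of the line, among them VIM, CD44 and AXL, were all over the detection level. By the brightest probe set of each, 2 of these rose and 3 fell in the arrays labelled GATA3, where 29.3% of all tested genes changed. ZEB1, a repressor of epithelial genes, was 3.77-fold lower (limma adjusted p 1.64e-05). KRT18, a keratin of simple epithelia, was 1.44-fold higher (adjusted p 0.000503). Of the markers counted as unchanged, CD44 had 1 of 12 tested probe sets called lower, and AXL and CAV1 each 1 of 2. PGR was at 2.16, the common lowest value of the arrays, on all 6 arrays. ESR1 held the same repeated value, 4.02, on 5 of the 6 arrays, and read 4.45 on GATA3 replicate 3. GATA3 itself was lower in the arrays labelled GATA3. Probe set 209604_s_at, the brightest for GATA3, read 9.37, 9.35 and 9.45 in the GFP control against 7.93, 7.94 and 7.32 in the arrays labelled GATA3 (limma adjusted p 0.00238), so the directions below rest on the labels alone. Whether that probe set reads the introduced sequence is not known here. GATA3 replicate 3 alone carries the second raw-file date. It correlated less with the other arrays of its group than they did with each other, the 3 correlations lying between 0.984 and 0.997, and its upper quartile was 7.78 against 7.97 to 8.04 on the other arrays. Of 3 tested fibroblast markers, each read by its brightest tested probe set, only LUM changed, from 3.25 to 10.96. The dimmer of the 2 tested probe sets of COL1A1 was also called higher. The log2 of the summed level of the 6 listed markers was 7.65 to 7.72 in the GFP control. It was 11.09 to 11.12 in the arrays labelled GATA3. Without LUM the sums were 7.59 to 7.64 and 7.58 to 7.86, and COL1A2, DCN and COL3A1 lay at or under 3.20 on every array. No listed marker of leukocytes or endothelium exceeded 2.48. Fewer cells of a kind and less RNA per cell cannot be told apart in such bulk samples.

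The Cip/Kip inhibitors moved apart. CDKN1A rose by 0.98 on the log2 scale, while CDKN1C fell by 0.78 and CDKN1B by 0.57. At an adjusted p under 0.05, 3 of 7 tested genes changed, 1 higher and 2 lower, where 29.3% of all 10814 tested genes changed. By probe set, 4 of 10 passed against 25.3% of all 23785 tested, and the groups did not overlap in 7 of 10 against 46.0% of all tested. A count of 3 genes among 7 is thus not far from the share that changed over the whole array. The median log2 difference of the 7 genes was -0.15, beside -0.02 over all tested genes.

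**Figure D1:**
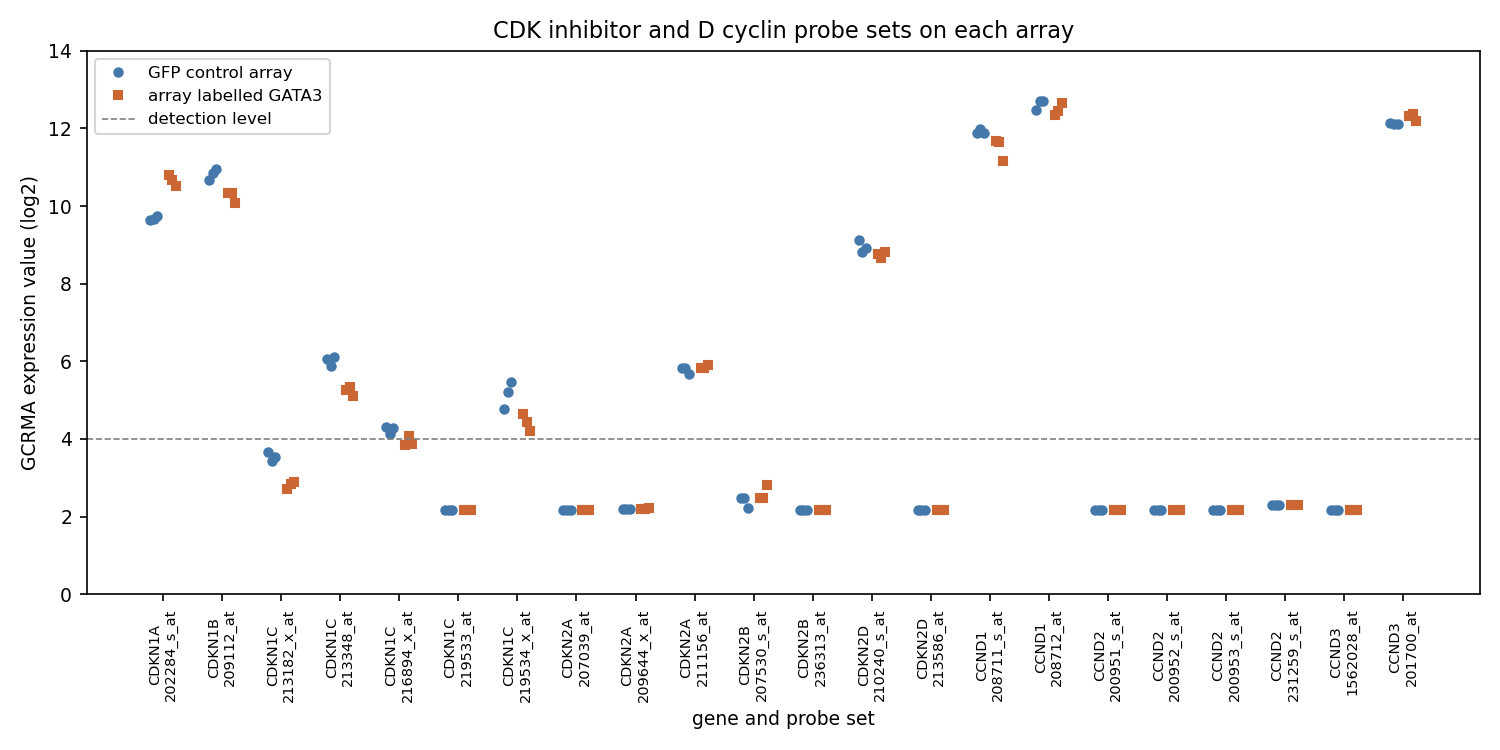
GCRMA expression values (log2, vertical axis) of the 22 probe sets on each of the 6 arrays, with circles for the GFP control and squares for the arrays labelled GATA3, and a dashed line at the detection level of 4. CDKN1A is the one gene whose arrays labelled GATA3 lie clearly above the GFP control, CDKN1B and CDKN1C lie below it, and CCND2 and CDKN2B stay under the line.

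CDKN1A, which encodes the p21 inhibitor that arrests the cycle after DNA damage and during differentiation, was higher in the arrays labelled GATA3. Its only probe set (202284_s_at) read 9.64, 9.67 and 9.74 in the GFP control and 10.81, 10.67 and 10.50 in the arrays labelled GATA3. All 3 arrays labelled GATA3 lay above all 3 controls, and GATA3 replicate 3 was the lowest of them. The log2 difference was 0.98 (SE 0.09), 1.97-fold with a 95% interval of 1.70 to 2.29, and the adjusted p was 0.00112 (limma). The difference was 1.06 without GATA3 replicate 3 (adjusted p 0.000997). A rise of at least this size was found in 467 of the 1601 genes that were higher, or 29.2% of them. The suffix of this probe set marks probes shared by several transcripts, and no other probe set of CDKN1A was named.

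CDKN1B encodes p27, the inhibitor that holds CDK2 in check in resting cells and whose level is known to be set largely by protein breakdown. Its probe set (209112_at) read 10.68, 10.85 and 10.96 in the GFP control and 10.33, 10.34 and 10.09 in the arrays labelled GATA3. The groups did not overlap, with GATA3 replicate 3 the lowest of all. CDKN1B fell by 0.57 on the log2 scale (SE 0.10), 1.49-fold lower with a 95% interval of 1.24 to 1.78 and a limma adjusted p of 0.0129. The call was narrower than that of CDKN1A. Leaving out GFP control replicate 2 gave an adjusted p of 0.0572, leaving out GFP control replicate 3 gave 0.0494, and leaving out GATA3 replicate 3 gave 0.0201. It was 0.0572 as well when dim probe sets were tested too.

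CDKN1C encodes p57, the third Cip/Kip protein, an imprinted gene known from embryonic growth control and placenta. It was dim, and its 5 probe sets differed in brightness. The brightest (213348_at) read 6.06, 5.89 and 6.11 in the GFP control and 5.27, 5.34 and 5.10 in the arrays labelled GATA3. The groups did not overlap. The value fell by 0.78 on the log2 scale (SE 0.10), 1.72-fold lower with a 95% interval of 1.45 to 2.04, and the limma adjusted p was 0.00401. Dropping any 1 array kept this call (adjusted p 0.00663 to 0.0220).

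The other CDKN1C probe sets carry a suffix for probes that may bind unrelated transcripts, except 219533_at, which was at the common lowest value on all 6 arrays. Probe set 216894_x_at read 4.31, 4.13 and 4.29 in the GFP control and 3.84, 4.06 and 3.86 in the arrays labelled GATA3, on both sides of the detection level. Its log2 level fell by 0.32 (limma adjusted p 0.0469), and the call was lost when any 1 array other than GATA3 replicate 2 was left out (adjusted p 0.0615 to 0.138). Probe set 219534_x_at read 4.76, 5.22 and 5.48 against 4.64, 4.45 and 4.20. Its difference of -0.72 (SE 0.21) did not pass (adjusted p 0.0595), but did without GFP control replicate 1 (-0.92, adjusted p 0.0308). Probe set 213182_x_at lay under the detection level on every array, at 3.44 to 3.67 against 2.70 to 2.88, and was not tested. In all 4 probe sets that left the lowest value, the 3 arrays labelled GATA3 read below the 3 controls, and these probe sets share one transcript and one RNA.

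**Figure D2:**
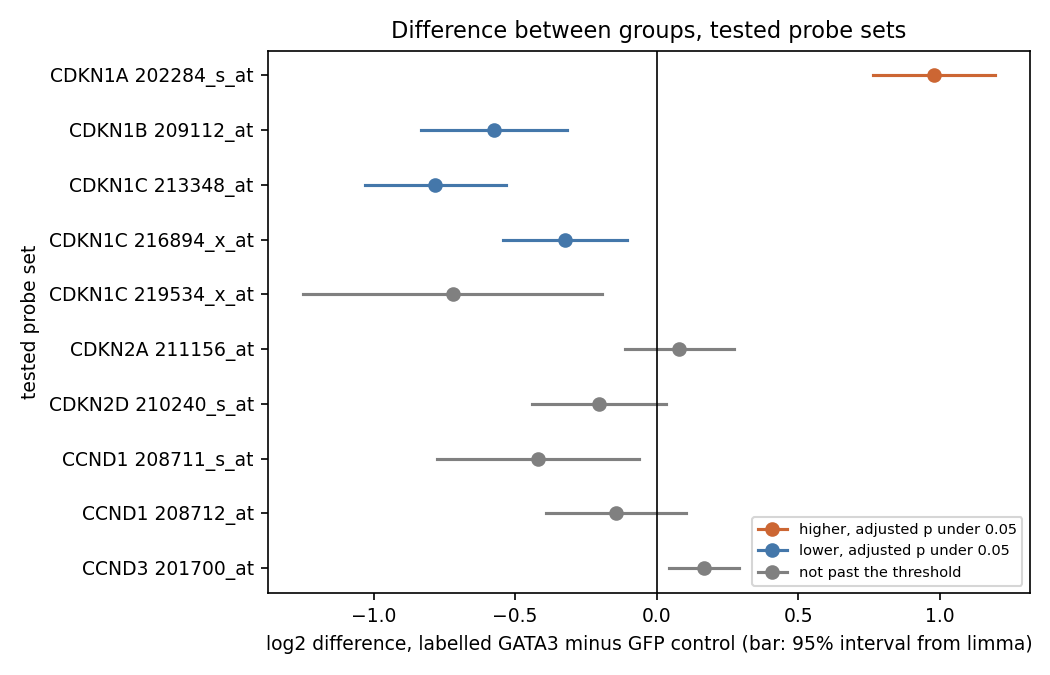
Log2 difference between the arrays labelled GATA3 and the GFP control (horizontal axis) for the 10 tested probe sets, with the 95% interval from limma as a bar. CDKN1A lies to the right at 0.98, CDKN1B at -0.57 and CDKN1C at -0.78 to the left, and grey probe sets did not pass the threshold.

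The stretch before the start of CDKN1A and of CDKN1B is shown because these are the Cip/Kip genes with called changes that the RefSeq promoter table (GRCh38.p14) holds, and because GATA3 binds DNA at GATA motifs. Each sequence is the 250 bases before the gene's start, 5′ to 3′ on the strand of the gene, both on the plus strand, at chr6:36678464-36678713 for CDKN1A and chr12:12717118-12717367 for CDKN1B. Capitals mark GC boxes (GGGCGG on either strand) and CCAAT boxes (CCAAT on either strand).
CDKN1A: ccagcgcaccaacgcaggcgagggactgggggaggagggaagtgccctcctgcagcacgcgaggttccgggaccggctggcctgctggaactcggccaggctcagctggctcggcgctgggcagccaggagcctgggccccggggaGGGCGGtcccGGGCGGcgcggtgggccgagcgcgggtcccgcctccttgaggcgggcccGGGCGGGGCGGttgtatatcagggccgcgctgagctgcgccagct
CDKN1B: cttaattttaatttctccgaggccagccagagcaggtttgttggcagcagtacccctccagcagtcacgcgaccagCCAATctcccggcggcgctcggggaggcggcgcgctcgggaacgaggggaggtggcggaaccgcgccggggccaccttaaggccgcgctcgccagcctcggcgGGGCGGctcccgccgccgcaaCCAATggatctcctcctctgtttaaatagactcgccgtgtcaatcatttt

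The CDKN1A stretch held 4 GC boxes, 2 of which share bases, and no CCAAT box. The CDKN1B stretch held 1 GC box and 2 CCAAT boxes. Of all 35116 promoters of the table, 42.6% held a GC box and 32.0% a CCAAT box in the same window. The GATA motif was searched on both strands as AGATAA, with T also allowed as its first base and G as its last. It was in none of the 12 promoters of 7 member genes that the table holds (CDKN1A, CDKN1B, CDKN2A, CDKN2B, CDKN2C, CDKN2D and CCND3), and in 22.3% of all promoters. This says only that those letters are not in these windows, which are short and, in CDKN1A, 76.4% G and C against a median of 58.0% over all promoters.

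Among the INK4 inhibitors, 1 gene was measured well above the detection level. CDKN2D encodes p19, an inhibitor of CDK4 and CDK6 found in many tissues. Its brighter probe set (210240_s_at) read 9.12, 8.83 and 8.92 in the GFP control and 8.76, 8.67 and 8.83 in the arrays labelled GATA3. The groups overlapped, and 8.83 stood on 2 arrays, 1 of each group. The log2 difference was -0.20 (SE 0.10), with a 95% interval of -0.44 to 0.03, and did not pass (limma adjusted p 0.175). The other probe set, 213586_at, was at the lowest value on all arrays.

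CDKN2A, which encodes the INK4 inhibitor p16 and, from another reading frame, the protein ARF, was near the lowest value in 2 of its 3 probe sets. Probe set 207039_at was at 2.16 on all 6 arrays and 209644_x_at lay between 2.19 and 2.21. The third, 211156_at, was tested because it lay over the detection level, at 5.83, 5.83 and 5.67 in the GFP control and 5.83, 5.83 and 5.91 in the arrays labelled GATA3. The same value, 5.83, stood on 4 of the 6 arrays. GCRMA is known to leave repeated values where it finds no signal over its estimated background, and 7.79% of all tested probe sets held one exact value on 3 or more arrays. The reading of 211156_at is therefore not taken as expression, and its difference of 0.08 (SE 0.08) did not pass (limma adjusted p 0.474).

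CDKN2B, the neighbour of CDKN2A that encodes p15, an inhibitor known as a target of TGF-beta signalling, was under the detection level in both groups. Probe set 236313_at was at the lowest value on every array. Probe set 207530_s_at read 2.47, 2.47 and 2.23 in the GFP control and 2.47, 2.47 and 2.81 in the arrays labelled GATA3, again with 1 value on 4 arrays. No fold is given where both groups lie under the detection level.

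The dim readings extended over the genes on both sides. Between MLLT3 and TUSC1, the nearest genes on either side with a probe set over the detection level by varying values, lie 25 genes with a named probe set in RefSeq gene order, CDKN2A and CDKN2B included. Of their 39 probe sets, 1 was over the detection level on any array, that of CDKN2A just described, and the highest reading of the other 24 genes was 2.81, from CDKN2B. Over the series, 54.8% of probe sets lay at or under the detection level on all arrays. That share does not test the region. The ends were chosen by detection, so no gene between them could exceed that level by varying values. The silent genes include MTAP, an enzyme that recycles methionine, with 6 probe sets at or under 2.76, and KLHL9 and FOCAD, at or under 2.21 and 2.17, next to the type I interferon genes, which resting cells rarely transcribe. TUSC1 was bright in both groups, at 9.95, 9.97 and 10.06 in the GFP control and 9.73, 9.83 and 9.66 in the arrays labelled GATA3. It fell by 0.25, log2 units, and passed (limma adjusted p 0.0369), and was lost without any GFP control array or without GATA3 replicate 1 (adjusted p 0.0793 to 0.117). MLLT3 read 5.32, 5.20 and 6.12 in the GFP control and 5.06, 5.29 and 4.65 in the arrays labelled GATA3, a difference that did not pass (adjusted p 0.227). Whether the DNA is present was not measured.

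**Figure D3:**
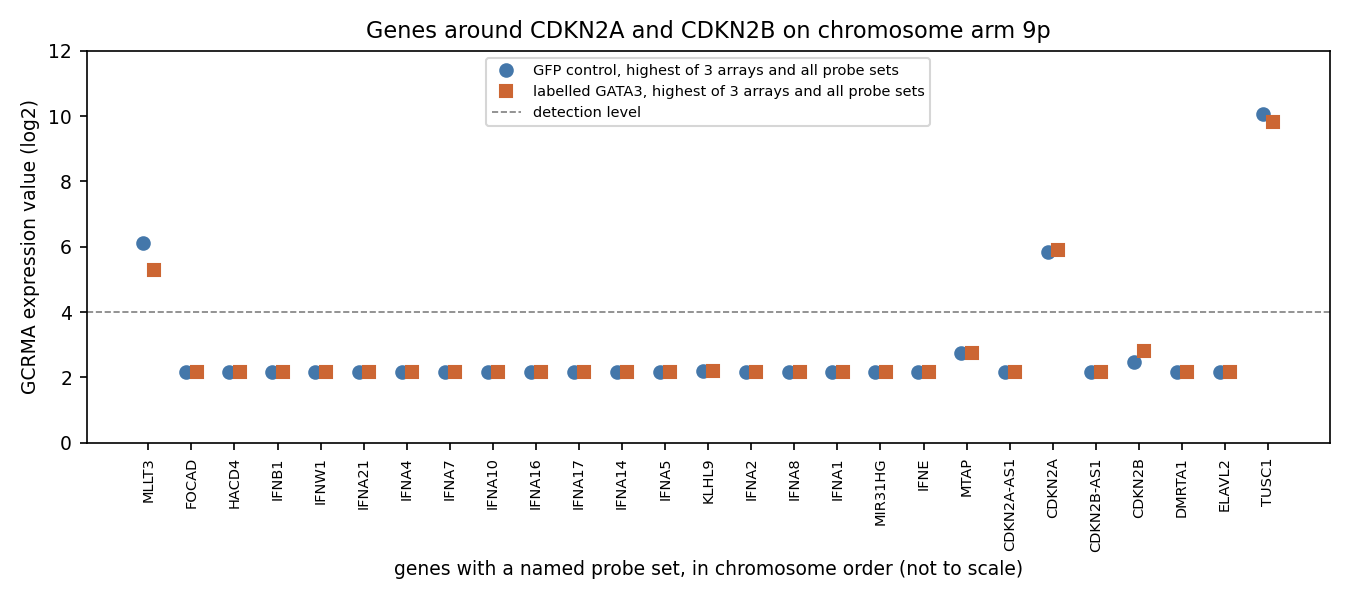
Highest GCRMA value (log2, vertical axis) over all probe sets of each gene, for the 3 GFP control arrays (circles) and the 3 arrays labelled GATA3 (squares), with genes in chromosome order from MLLT3 to TUSC1 and spacing not to scale. Every gene between the ends reads at or under 2.81 except CDKN2A, at 5.83 in the GFP control, a value repeated on 4 arrays, and 5.91 in the arrays labelled GATA3, from replicate 3.

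The D cyclins were either bright and little changed, or not detected. CCND1 encodes cyclin D1, the D cyclin most often amplified in breast cancer. Its brighter probe set (208712_at) read 12.48, 12.69 and 12.70 in the GFP control and 12.35, 12.44 and 12.65 in the arrays labelled GATA3. The groups overlapped, with GATA3 replicate 3 inside the control range. The log2 difference was -0.15 (SE 0.10), with a 95% interval of -0.39 to 0.10, and did not pass (limma adjusted p 0.325).

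The other CCND1 probe set (208711_s_at) read 11.88, 11.98 and 11.88 in the GFP control and 11.67, 11.64 and 11.17 in the arrays labelled GATA3. Here the groups did not overlap, and GATA3 replicate 3 was the lowest, in contrast to the brighter probe set. The difference of -0.42 (SE 0.14) did not pass (limma adjusted p 0.0882). Without GATA3 replicate 3 it was smaller, -0.26, and passed (adjusted p 0.0158). It thus passed among the 5 arrays of the first raw-file date. As the mean of both probe sets, CCND1 fell by 0.28 in log2 units (limma adjusted p 0.0133), although neither probe set passed alone. That fit and its adjustment ran over genes instead of probe sets.

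CCND3 encodes cyclin D3, known for its role in lymphocytes and in differentiating cells. Probe set 201700_at read 12.14, 12.12 and 12.12 in the GFP control and 12.33, 12.36 and 12.20 in the arrays labelled GATA3. All 3 arrays labelled GATA3 lay above the controls, GATA3 replicate 3 the least. The log2 difference was 0.17 (SE 0.05), or 1.12-fold with a 95% interval of 1.03 to 1.22, and did not pass (limma adjusted p 0.0612). Without GATA3 replicate 3, that is among the arrays of the first raw-file date, it was 0.22 and passed (adjusted p 0.00663). After cyclic loess it was 0.20 (adjusted p 0.0131), and with equal array medians 0.25 (adjusted p 0.0211). The second probe set, 1562028_at, was at the lowest value on all arrays.

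CCND2, which encodes cyclin D2, was not detected. Of its 4 probe sets, 3 were at the lowest value on all 6 arrays and 231259_s_at stood at 2.30 on each of them. Of the 12 member probe sets that were not tested, 9 held a single value on all 6 arrays, and 8 of these were at the common lowest value.

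**Figure D4:**
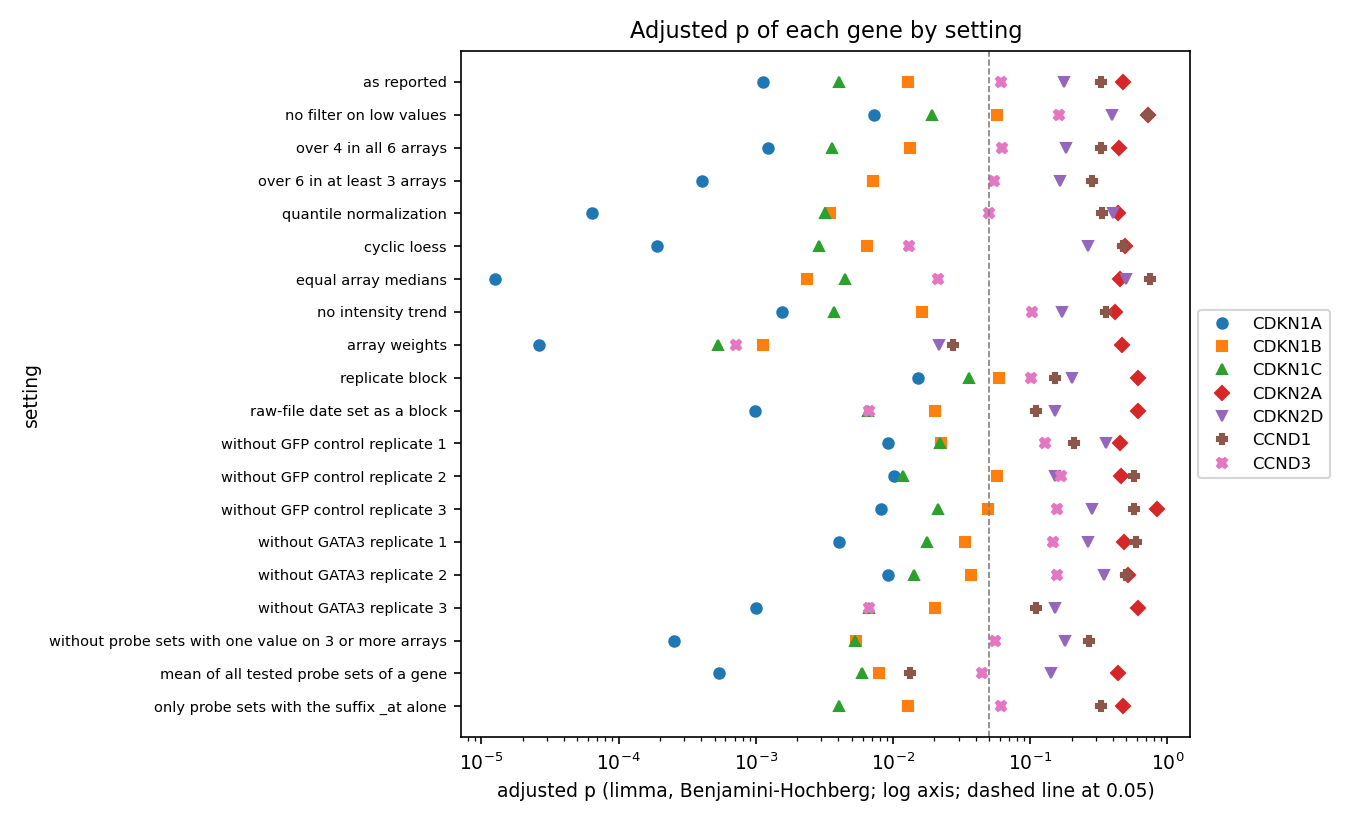
Adjusted p of limma (horizontal log axis, dashed line at 0.05) for the 7 tested genes under the reported setting and each alternative (rows of the vertical axis). CDKN1A and CDKN1C stay left of the line in each setting that tests them, CDKN1B crosses it in 3 settings, and CCND3 lies near it on either side.

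Genes whose pattern was closest to that of CDKN1A were found by the root mean square difference over the 6 arrays, after each probe set was centred on its own mean, among all tested genes. The closest were PCK2 (0.04 on the log2 scale), TRAF3IP2, ZNF823, FCMR and CUX1 (each 0.05 to 0.06). Their log2 rises were 0.87 to 1.05. For CDKN1C the closest were NUAK1 (0.05), RAVER1, NCOA5, WWTR1 and RRBP1 (up to 0.07), with falls between 0.69 and 0.89. Such likeness over 6 arrays in a pair of groups mostly reflects a change of like size.

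Among genes listed for ties to the members, by function or by place near CDKN2A, more fell than rose at the reported setting. The size of that imbalance moved with the scaling and with single arrays. Over 8 lists of cell cycle genes, regulatory genes and chromosomal neighbours of CDKN2A, 130 genes were tested. Of these, 12 (9.23%) rose and 35 (26.9%) fell, beside 14.8% and 14.5% of all tested genes. Their median log2 difference was -0.10, beside -0.02. The number that fell was 16 to 33 when any 1 array was left out, lowest without GFP control replicate 2, and it was 19 without either other control array and 22 without GATA3 replicate 2. The number that rose was 19 without GATA3 replicate 3 and 11 to 13 without any other single array. With equal array medians 17 rose and 21 fell, and without the filter on dim probe sets 11 rose and 18 fell. After quantile normalization 18 rose and 35 fell, and after cyclic loess 18 and 34. The difference between rises and falls was not tested. Of 22 genes chosen from these lists by a rule of size, 11 passed in each of those 6 fits.

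Of 21 kinases and cyclins, each read by its brightest tested probe set, 3 rose, 6 fell and 12 did not pass, with a median of -0.12. Those 12 include CDK1, with 2 of 3 tested probe sets called higher, and CDK8, with 1 of 3 called lower. CDK6, a partner of D cyclins and target of INK4 inhibitors, read 11.54, 11.80 and 11.55 in the GFP control and 10.88, 10.66 and 10.17 in the arrays labelled GATA3. It fell 2.09-fold (log2 difference -1.06, SE 0.19, limma adjusted p 0.0132), and all 6 of its tested probe sets fell. The call of the brightest was lost without GFP control replicate 2 (adjusted p 0.0577). CCNA1, a cyclin known from male germ cells, fell 3.02-fold, from 7.90 ± 0.09 to 6.31 ± 0.51 (SD, n = 3), with GATA3 replicate 3 the lowest at 5.73. The call of CCNG2, which encodes an atypical cyclin of arrested cells, moved with single arrays. It fell 1.92-fold (limma adjusted p 0.0446), with an adjusted p of 0.0517 to 0.137 when any 1 array other than GATA3 replicate 3 was left out and 0.00191 without that array. The list had 3 rises and 3 falls without GFP control replicate 2, and the same counts without the filter on dim probe sets. With equal array medians it had 4 of each.

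Of 17 tested pocket proteins, E2F and DP factors and their partners, 1 rose, 4 fell and 12 did not pass, with a median of -0.18. TFDP1 is counted as not passing by its brightest probe set, although 2 of its 3 tested probe sets were called lower. E2F4 is among the 12 by a probe set that held 1 value, 6.23, on all 6 arrays. As for CDKN2A, such a reading is not taken as expression. RB1 itself, the target of D cyclin kinases, read 11.49 ± 0.17 and 11.27 ± 0.08 (SD, n = 3) and did not pass (limma adjusted p 0.152). MYBL2, a transcription factor of dividing cells, rose 1.61-fold (adjusted p 0.00101), and TFDP2, a partner of E2F proteins, fell 1.36-fold by its brightest probe set, while 1 of its 3 tested probe sets rose and 1 did not pass. RBL1, which encodes the pocket protein p107, fell 1.66-fold (adjusted p 0.0291). That call was lost without any GFP control array or GATA3 replicate 2 (adjusted p 0.0514 to 0.105). Of the 3 tested probe sets of RBL1, 2 were called lower. The number of falls was 1 without GFP control replicates 2 or 3 and 2 without GATA3 replicate 2. It was also 1 without the filter on dim probe sets.

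Of 19 tested E2F targets of S phase entry, 1 rose, 7 fell and 11 did not pass, with a median of -0.10. CDT1 did not pass by its brightest probe set, while 1 of its 2 tested probe sets was called lower. CDC6, which loads the replicative helicase, rose 1.42-fold (limma adjusted p 0.00119), although its other tested probe set did not pass. MCM4, a subunit of that helicase, fell 1.46-fold, and UHRF1, which keeps DNA methylation through replication, 1.32-fold. The call of MCM4 was lost without GFP control replicates 1 or 2 (adjusted p 0.0556 and 0.0590), and that of UHRF1 without GFP control replicate 1 or GATA3 replicates 1 or 2 (adjusted p 0.0699 to 0.0783). PCNA, the sliding clamp, read 13.41 to 13.46 in the GFP control and 13.43 to 13.45 in the arrays labelled GATA3. The number of falls was 2 to 4 with any 1 array left out, 3 without the filter on dim probe sets, and 1 with equal array medians, where 1 gene rose as well.

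Of 18 genes for the breakdown of p27 and D cyclins, none rose, 3 fell and 15 did not pass, with a median of -0.11. CUL4A did not pass by its brightest probe set, while 1 of its 3 tested probe sets was called lower. SKP2, the ubiquitin ligase subunit that recognises p27, read 11.64, 11.65 and 11.62 in the GFP control and 10.87, 11.12 and 11.08 in the arrays labelled GATA3. It fell 1.53-fold (log2 difference -0.61, SE 0.07, limma adjusted p 0.00287), and all 3 of its tested probe sets fell. UBAC1, part of another ubiquitin ligase of p27, fell 1.42-fold, a call lost without any GFP control array (adjusted p 0.0670 to 0.0738). DTL, which recruits p21 and other proteins to a ligase, fell 1.12-fold, a call that held only with all arrays or without GATA3 replicate 3. Of the 2 tested probe sets of DTL, 1 was called lower. The number of falls was 1 without any single GFP control array, and 1 without the filter on dim probe sets.

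Of 9 phosphatases, kinases and cofactors that act on CDKs, 2 rose, 4 fell and 3 did not pass, with a median of -0.11. CDC25B, a phosphatase that activates CDKs, fell 1.33-fold (limma adjusted p 0.0118), and CDC25C, its relative at entry into mitosis, 1.34-fold. The call of CDC25C was lost without any GFP control array or GATA3 replicate 2 (adjusted p 0.0564 to 0.0600). Of the 2 tested probe sets of CDC25C, 1 was called lower. CDC14B, a phosphatase that opposes CDKs, rose 1.29-fold by its brightest probe set, while its other 4 tested probe sets did not pass. The number of falls was 2 without GFP control replicate 2, and with equal array medians 1 gene rose and 2 fell.

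Of 24 tested regulators of CDK inhibitor and cyclin D genes, 2 rose, 8 fell and 14 did not pass, with a median of -0.02. Those 14 include FOXO3, with 1 of 3 tested probe sets called higher, and KLF4, with 1 of 2 called lower. FOXO1, a forkhead factor that activates CDKN1A and CDKN1B, read 6.02, 6.21 and 6.12 in the GFP control and 6.93, 6.98 and 6.98 in the arrays labelled GATA3, and rose 1.80-fold (limma adjusted p 0.00126). TCF7L2, the Wnt pathway factor that acts on CCND1, fell 1.99-fold (adjusted p 0.00308), as did all 7 of its tested probe sets. ETS1, a transcription factor of invasive cells, fell 1.97-fold (adjusted p 0.000786), as did all 3 of its probe sets. The number of falls was 5 without GFP control replicate 1, and 5 without the filter on dim probe sets. GATA3 replicate 3 was not needed for any of these 3 calls, whose adjusted p-values without it were 0.00306, 0.00195 and 0.00184.

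**Figure D5:**
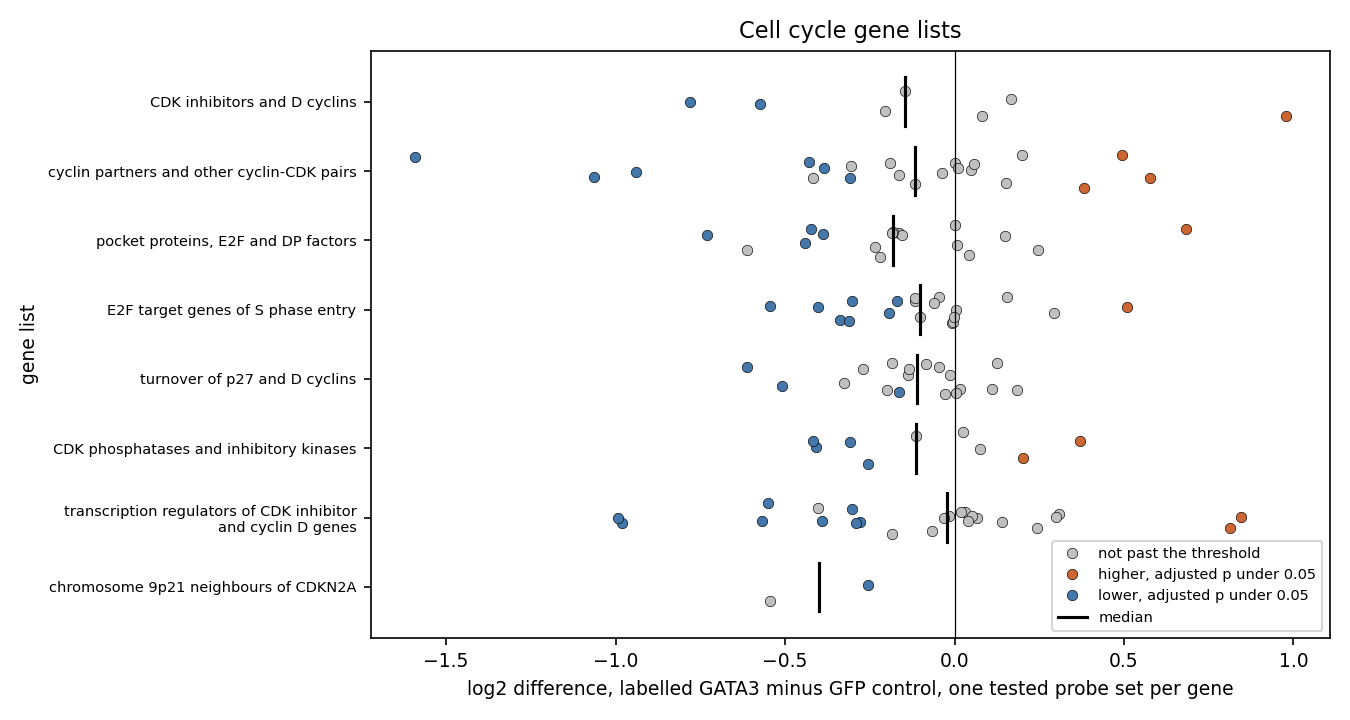
Log2 difference between the arrays labelled GATA3 and the GFP control (horizontal axis) for each tested gene of the members and of 7 lists, with 1 probe set per gene, colours for genes past the threshold and a black line at the median. Most lists have medians between -0.18 and -0.02, and the chromosome 9 list has 2 tested genes.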

How the data were processed

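Total RNA (1 µg per sample, integrity number over 9) was labelled with biotin and hybridised to 6 single-colour Affymetrix arrays, per the labels' protocols. Per the submitters' processing notes, the 1 value per probe set that the authors deposited comes from GCRMA (release not given in the sources used here). The deposited values were read as log2, which their range fits and no header states. They were used as deposited.

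Control probe sets (62) were left out. The 23785 tested probe sets were compared with limma 3.58.1 in R 4.3.3 (intensity trend, no covariates) and Benjamini-Hochberg adjustment over all of them. Symbols came from the platform annotation, checked against RefSeq, with 0 updated: 41091 probe sets had 1 symbol, 1801 several and 11721 none. Where a gene had several tested probe sets, the brightest on average stood for it. Each list contributed up to 3 named genes, those with the largest called changes. Other genes of the lists, such as RB1, PCNA, E2F4 and MTAP, were named outside that rule. Of the 8 lists, 1 entered the joint counts and is not reported here. Members, lists and rules were chosen with earlier results of these data known. The fits were tested on simulated data.

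Same-numbered arrays did not deviate together (correlations -0.13, 0.16 and -0.11), so numbers were not taken as pairs. The log2 ratios of 3′ to 5′ control probe sets were -0.05 ± 0.02 and -0.01 ± 0.01 (SD, n = 3) for GAPDH (two-sided exact permutation p = 0.1, the smallest possible) and 0.53 ± 0.08 and 0.50 ± 0.07 for ACTB (exact permutation p = 0.7).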

Additional observations from a re-analysis of the deposited data

How the results depend on the processing

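The 7 tested genes, CDKN2A among them by a reading not taken as expression, kept their direction in each alternative that tested them. Of 128 such values, 116 stayed on the same side of the threshold, 9 newly passed and 3 no longer did. Of the 116, 17 were of CDKN2A. The raw-file date block and the fit without GATA3 replicate 3 are counted separately, although they give the same differences. Without the filter on dim probe sets, 1767 probe sets fell, with 1 member gene and 18 pathway genes among the falls, and CDKN1B (-0.57) did not pass. With a bar of 6, 2 member probe sets changed and 1 member gene fell. CCND3 passed, so that 2 member genes rose, after cyclic loess (0.20), with equal array medians (0.25, where 17 pathway genes rose and 21 fell) and with array weights (0.23). It passed likewise with the raw-file date as a block (0.22, and 19 pathway genes rose). GATA3 replicate 3 is the only array of the second date, so this block gives the same differences as leaving that array out. As a mean of probe sets CCND3 passed too (0.17), and CCND1 passed at -0.28. CCND3 has 1 tested probe set, so its values there were unchanged. That fit and its adjustment ran over genes instead of probe sets. Array weights, whose estimate stopped before convergence, gave 5195 rises and 6642 falls, 8 changed member probe sets, 4 falls among member genes with CDKN2D (-0.26) and CCND1 (-0.20), and 23 rises among pathway genes. With suffix _at alone, CDKN1A was not tested, 0 member genes rose, and pathway genes had 7 rises and 23 falls.

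Same-numbered arrays did not each correlate best with each other. With the replicate number as a block, 2022 probe sets rose and 2106 fell, 2 member probe sets changed, 1 member gene and 22 pathway genes fell, and CDKN1B (-0.57) did not pass (limma adjusted p 0.0590).

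Leaving out 1 array at a time gave 1796 (without GFP control replicate 2) to 3581 (without GATA3 replicate 3) rises and 1801 to 3752 falls over all probe sets. It gave 2 to 5 changed member probe sets, 1 to 2 rises and 1 to 2 falls among member genes, 11 to 19 rises and 16 to 33 falls among pathway genes, -0.65 to -0.49 for CDKN1B and 0.13 to 0.22 for CCND3. Values near the detection level, as for CDKN1C, limit what these arrays can show.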

Other observations

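Further cell cycle genes, chosen after their values were seen, changed in the arrays labelled GATA3. CDK4, the other kinase of D cyclins, fell by 0.31 on the log2 scale (SE 0.04, limma adjusted p 0.00327). CCNE1, the cyclin E1 that drives CDK2, rose by 0.58 (SE 0.08, adjusted p 0.00652), from 9.02 ± 0.03 to 9.59 ± 0.15 (SD, n = 3). CDK7, part of the CDK-activating kinase, rose by 0.38 and CDK5, a kinase known from neurons, by 0.49 (adjusted p 0.00882 and 0.0106). SMAD3, the TGF-beta signal transducer that can act on CDKN1A and CDKN2B, fell by 0.57 and SP1, which binds GC boxes, fell by 0.55 (adjusted p 0.00470 and 0.00409). These 6 calls held without any single array (adjusted p 0.00236 to 0.0480). Of the 4 tested probe sets of SP1, 3 were called lower. FOXM1, a transcription factor of the G2 phase, fell by 0.39 (adjusted p 0.0158), a call lost in 2 of the 6 such fits (adjusted p up to 0.0647).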
